A study of Mus musculus with 74 samples.

Results

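A set of 10 heat shock and chaperone genes was followed through a lipopolysaccharide (LPS) time course in mouse macrophage-like cells with edited histone H3.3 genes. The genes, chosen by name from the 24851 genes of the RNA tables, were the small heat shock proteins Hspb8 and Hspb1, the HSP70 genes Hspa1a, Hspa1b and Hspa8, the HSP90 gene Hsp90aa1, the HSP110 gene Hsph1, the J-domain co-chaperone Dnajb1, the BAG co-chaperone Bag3 and the transcription factor Hsf1. All 10 were found in both tables. The list was drawn up with measurements of these libraries known, and which of them guided it is not recorded, so each adjusted p-value below sets a gene against the spread between replicates and is not independent evidence for the list.

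RNA was sequenced from 3 cell lines, each with 0, 60 or 120 min of LPS and 2 libraries per group. Line 264 and line 3205 are edited derivatives of RAW264.7, a mouse macrophage-like line, in which the H3.3 genes H3f3a and H3f3b were targeted. Unedited RAW264.7 was the reference. The series names hypomorphic lines and CRISPR double knockouts without saying which of these 264 and 3205 are, whether a line is 1 clone, or which LPS dose the lines received. No agent other than LPS is named for these groups. A further set of tables holds LPS responses and chromatin immunoprecipitation (ChIP) signal of primary bone marrow derived macrophages given 100 ng/mL LPS. All primary macrophage RNA libraries of the series carry DMSO in their titles. Only the authors' fold changes of that RNA were taken, so its libraries are not counted as used. Of 74 samples in the series, 18 RNA libraries and 12 ChIP libraries were used here.

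HSP70 chaperones bind exposed hydrophobic stretches of unfolded proteins and release them in an ATP-driven cycle. J-domain proteins such as DNAJB1 deliver substrates and stimulate the ATPase, and nucleotide exchange factors such as HSPH1 and BAG proteins reset it. HSP90 finishes the folding of kinases, receptors and other clients, while small heat shock proteins hold unfolded proteins without ATP. HSF1 is the transcription factor that drives the stress-inducible members of these families, through heat shock elements built of inverted GAA units. In macrophages, chaperone induction has been described alongside inflammatory activation.

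Promoter sequence is shown for 4 of the genes in which heat shock element letters were found, because HSF1 binds such elements. These are the near-identical pair Hspa1a and Hspa1b, Hsph1, which held the longest match, and Hspb1, which held a pair of matches upstream of the start. A window of 300 bases, 250 before and 50 after the annotated start, was available from RefSeq (GRCm38.p6) for 7 of the 10 genes. Hspa8, Hsp90aa1 and Hsf1 were not among them. The pairs GAANNTTC and TTCNNGAA, which read the same on both strands, and the triple, GAANNTTC followed by NNGAA, searched on both strands and overlapping the pairs it is built from, were looked for in every window. A pair was held by 6 of the 7 genes, against 17.0% of 27025 genes with a window, and Hsph1 held the triple, against 0.662% of genes. The pair lay 104 bases before the start in Hspa1a and in Hspa1b, and 117 and 97 bases before the start in Hspb1. Dnajb1 held none in its windows. Capitals mark the matched pairs, or the triple read on the reverse strand in Hsph1. The sequences are the 250 bases before the start of Hspa1a (chr17:34972157-34972406, minus strand) and of Hspa1b (chr17:34959239-34959488, minus strand), and short stretches of Hsph1 (chr5:149636287-149636308, minus strand, after the start) and Hspb1 (chr5:135887794-135887837, plus strand, before the start).
Hspa1a: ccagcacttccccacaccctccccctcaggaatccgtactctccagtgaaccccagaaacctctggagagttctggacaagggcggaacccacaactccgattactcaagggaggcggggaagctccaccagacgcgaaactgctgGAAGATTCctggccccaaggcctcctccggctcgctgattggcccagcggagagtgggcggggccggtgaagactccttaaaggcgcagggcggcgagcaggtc
Hspa1b: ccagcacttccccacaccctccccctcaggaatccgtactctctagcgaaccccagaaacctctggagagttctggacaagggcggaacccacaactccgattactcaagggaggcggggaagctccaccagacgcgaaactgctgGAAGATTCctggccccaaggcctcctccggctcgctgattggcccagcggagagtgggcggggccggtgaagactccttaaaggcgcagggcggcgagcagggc
Hsph1: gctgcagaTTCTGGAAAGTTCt
Hspb1: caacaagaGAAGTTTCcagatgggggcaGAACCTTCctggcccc
The 250 upstream bases of Hspa1a and Hspa1b differed at 3 positions. The genes themselves are near-identical copies, and the labels do not say how reads that fit both were counted, so the split of reads between Hspa1a and Hspa1b is uncertain in every value below. Of the pairs outside the printed stretches, 1 lay 2 bases after the start in Hspb8 and 1 lay 42 bases after it in Bag3. Hsph1 held another, 33 bases before the start of the window used here and 54 bases before that of its other annotated window.

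The RNA libraries held between 13084927 and 53860392 reads, and levels are normalized reads, the authors' counts divided by a size factor per library. H3f3a had 172 to 236 normalized reads in line 264, 37.5 to 76.2 in line 3205 and 2055 to 3109 in RAW264.7. H3f3b had 5642 to 17765 in line 264, 7177 to 13284 in line 3205 and 13623 to 34155 in RAW264.7. The LPS targets Tnf, Cxcl2, Nfkbia and Tnfaip3 rose in every line at both times. Of 10 macrophage markers, 9 were in the tables, and the summed level of the list was 142174 to 224902 in line 264, 204380 to 277114 in line 3205 and 373119 to 490743 in RAW264.7. Lyz2 made up much of that gap, with means of 51177, 96418 and 242425 normalized reads. Without it the sums were 103438 to 177241, 109579 to 156221 and 149304 to 235679. These ranges, which span all LPS times, overlapped. At each single time, however, both RAW264.7 libraries lay above every library of the edited lines. Cd14 had means of 32730 in line 264, 21941 in line 3205 and 57569 in RAW264.7, and was called lower in line 3205 at each time. Both Cd14 libraries of line 264 also lay below both RAW264.7 libraries at each time, and the tests of that line are not given here. In the order line 264, line 3205 and RAW264.7, Spi1 (8691, 10740 and 14956) and Cd68 (15006, 16699 and 21156) were also lower on average in both edited lines. Fcgr1 went the other way, with means of 5591, 5721 and 2463, and was called higher in both edited lines at each time. Ptprc was higher on average too, with 16642, 16597 and 14593. Mertk averaged 3.62, 78.4 and 4.20. Fibroblast markers summed to at most 3.48 normalized reads and T and NK cell markers to at most 13.7 in any library. The part of these marker differences in the results below was not tested, and in bulk RNA fewer cells of a type and less RNA per cell cannot be told apart.

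In the fit that left replicate pairing out, few of the chaperone genes passed the test for an LPS response, and those that passed rose. Not passing with 2 libraries per group does not show that a gene did not respond. More genes passed when same-numbered libraries were paired, as given below. Differences were tested with limma on log2(normalized reads + 1) over genes with a mean of at least 1, with Benjamini-Hochberg adjustment over all genes of a table and a threshold of 0.05, and 9 of the 10 genes passed the filter, all but Hspb1. Hspb8, whose level in line 3205 is given below as a description, is left out of the counts and medians, which cover the other 8. At 60 min, 1 of 8 rose in line 264, against 1.19% of all genes tested that changed, 1 of 8 in line 3205, against 1.23%, and 2 of 8 in RAW264.7, against 2.98%. At 120 min, 1 of 8 rose in line 264, against 5.43% of all genes, 1 of 8 in line 3205, against 5.03%, and 1 of 8 in RAW264.7, against 10.6%. Dnajb1 was the gene called in both edited lines at both times. The median log2 change of the 8 genes at 60 min was 0.40 in line 264, 0.23 in line 3205 and 0.77 in RAW264.7. The median of all genes tested was -0.0090, -0.0039 and -0.0020. The medians of the 8 include Hspa1a, whose log2 changes of 0.97, -0.77 and 1.93 rest on at most 7 reads per group.

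**Figure D1:**
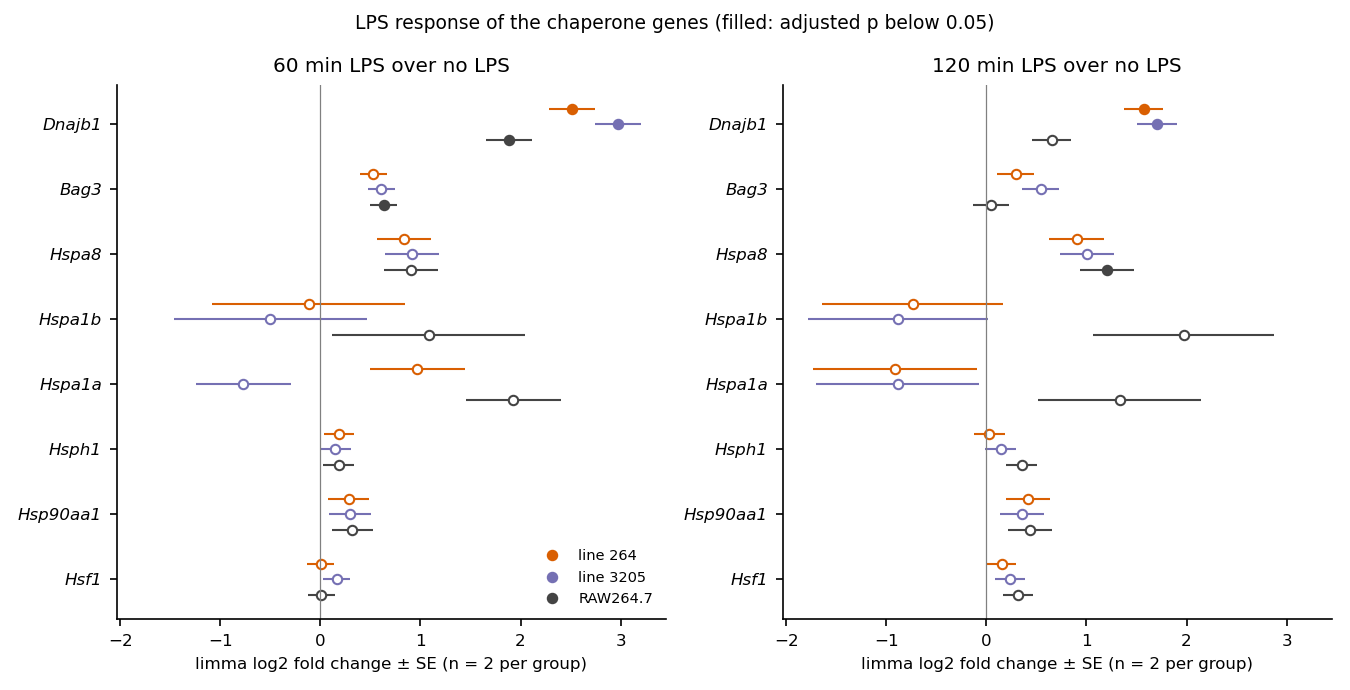
limma log2 fold change with its standard error (x axis) of 8 chaperone genes (rows) after 60 min (left) and 120 min (right) of LPS over no LPS in line 264, line 3205 and RAW264.7 (2 libraries per group). The fit is the one without replicate pairing. Filled points have an adjusted p below 0.05: Dnajb1 stands farthest right in each line at 60 min apart from Hspa1a in RAW264.7, which rests on few reads and is not called, and Hspa1b lies left of 0 in both edited lines and right of it in RAW264.7 without passing.

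Dnajb1, a J-domain partner of HSP70, had the largest called response to LPS among these genes at 60 min. In line 264 it had 1833 and 1572 normalized reads at 0 min, 10321 and 9136 at 60 min and 4593 and 5552 at 120 min. In line 3205 it had 1371 and 1243 at 0 min, 13863 and 7596 at 60 min and 4727 and 3835 at 120 min. RAW264.7 had 1348 and 1364 at 0 min, 4698 and 5325 at 60 min and 1754 and 2593 at 120 min. In all 3 lines both stimulated libraries lay above both unstimulated ones at each time, and the 120 min libraries lay below the 60 min libraries. The log2 change at 60 min was 2.52 ± 0.23 in line 264 (SE; limma, Benjamini-Hochberg adjusted p = 0.00044), 2.97 ± 0.23 in line 3205 (adjusted p = 0.00012) and 1.88 ± 0.23 in RAW264.7 (adjusted p = 0.0017). These are 5.72-fold, 7.85-fold and 3.69-fold changes. At 120 min it was 1.57 ± 0.20 in line 264 (limma adjusted p = 0.0015), 1.70 ± 0.20 in line 3205 (adjusted p = 0.0010) and 0.65 ± 0.20 in RAW264.7 (adjusted p = 0.066). With the replicate number as a block the 120 min change in RAW264.7 passed (limma adjusted p = 0.028), as it did without its own replicate 1 at 120 min (0.035). The calls in the edited lines at both times, and the 60 min call in RAW264.7, held without any single library. In the authors' deposited table the 60 min log2 change of Dnajb1 was 2.51 in line 264 (adjusted p = 3.6e-06), 3.04 in line 3205 (adjusted p = 8.8e-12) and 1.89 in RAW264.7 (adjusted p = 0.114), and the null hypothesis behind those p-values is not stated.

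After LPS, Dnajb1 was also higher in both edited lines than in RAW264.7, with no overlap between libraries. At 60 min the log2 difference was 0.96 ± 0.23 for line 264 over RAW264.7 (limma, Benjamini-Hochberg adjusted p = 0.020) and 1.04 ± 0.23 for line 3205 over RAW264.7 (adjusted p = 0.014). At 120 min it was 1.24 ± 0.20 for line 264 (limma adjusted p = 0.0024) and 1.0 ± 0.20 for line 3205 (adjusted p = 0.0082). In the authors' deposited table the log2 difference was 0.96 for line 264 and 1.10 for line 3205 at 60 min. At 120 min it was 1.22 and 0.98 there, and none of these passed an adjusted p of 0.05. In the limma fit the differences without LPS were 0.32 and -0.05 and did not pass (limma adjusted p = 0.48 and 0.93). The response itself was larger than in RAW264.7 by 0.63 ± 0.33 (line 264) and 1.09 ± 0.33 (line 3205) at 60 min, and by 0.92 ± 0.28 and 1.05 ± 0.28 at 120 min, on the log2 scale. None of these 4 differences between responses passed adjustment (limma adjusted p = 1, 1, 0.96 and 0.53). The 60 min line differences were lost without either RAW264.7 60 min library, without either line 264 60 min library for line 264 (adjusted p up to 0.12; 0.055 without a trend), and without replicate 1 of line 3205 at 60 min for line 3205 (up to 0.095). The 120 min difference of line 3205 was lost without replicate 1 of RAW264.7 or of line 3205 at 120 min (up to 0.071).

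**Figure D2:**
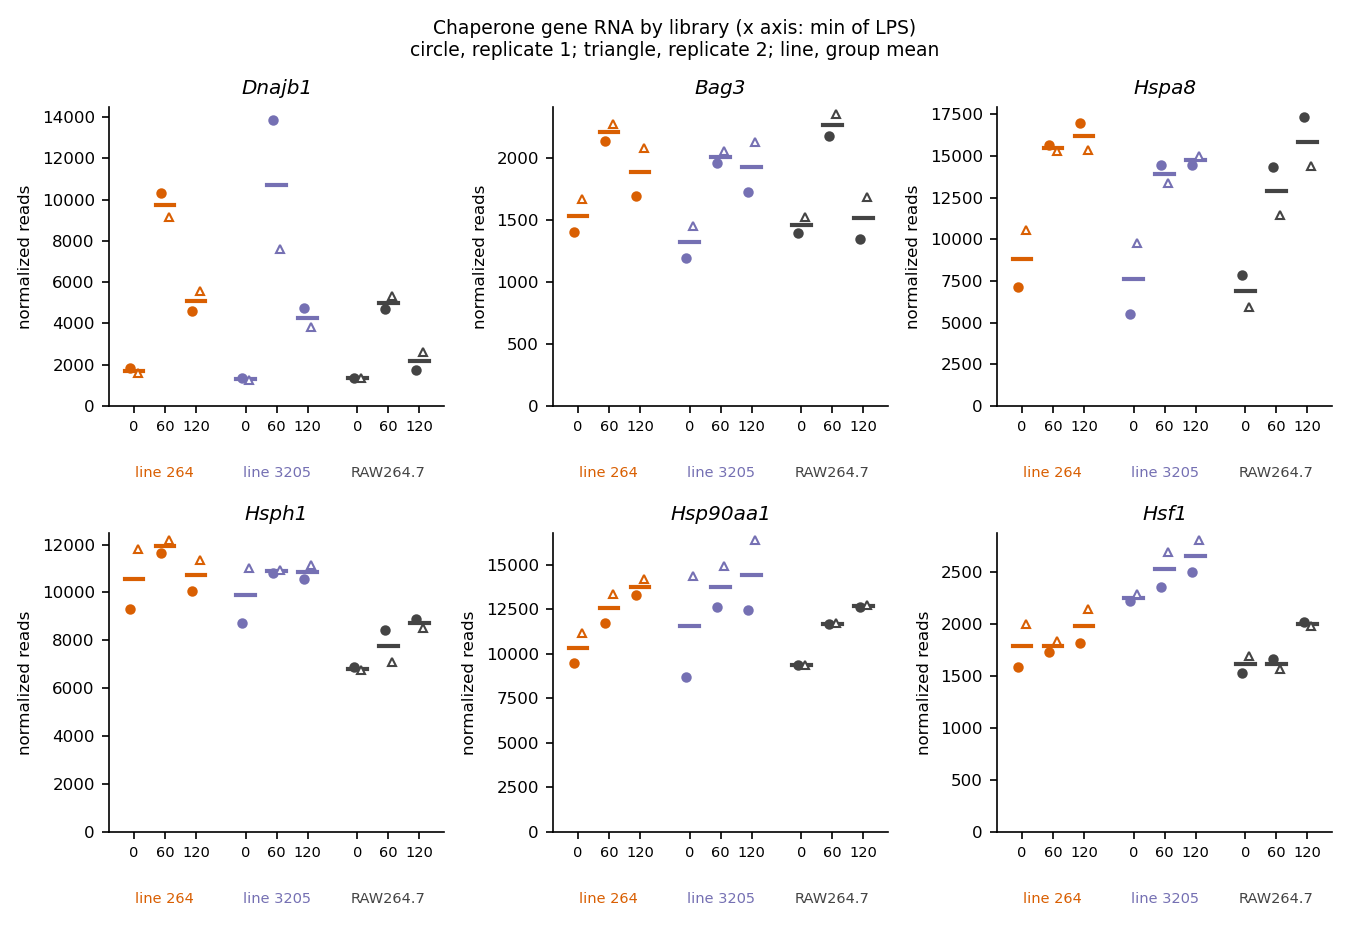
Normalized reads (y axis, from 0) of Dnajb1, Bag3, Hspa8, Hsph1, Hsp90aa1 and Hsf1 by min of LPS (x axis) in line 264, line 3205 and RAW264.7; each symbol is a library and each line a group mean (n = 2). Dnajb1 peaks at 60 min in every line and stands higher in the edited lines after LPS, Hspa8 stands above its unstimulated level at 60 and 120 min, and Hsf1 is highest in line 3205 at each time.

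Bag3, which couples HSP70 to small heat shock proteins and selective autophagy, gave a smaller response. It had 2138 and 2268 normalized reads at 60 min in line 264, against 1401 and 1665 without LPS. In line 3205 it had 1958 and 2055, against 1191 and 1453, and in RAW264.7 2172 and 2350, against 1397 and 1518. The stimulated libraries stood above the unstimulated ones in every line. The log2 change at 60 min was 0.53 ± 0.13 in line 264 (limma, Benjamini-Hochberg adjusted p = 0.14), 0.61 ± 0.13 in line 3205 (adjusted p = 0.078) and 0.63 ± 0.13 in RAW264.7 (adjusted p = 0.035). With the replicate block line 264 and line 3205 passed too (limma adjusted p = 0.0082 and 0.0035). The call in RAW264.7 was lost without any single library of its own 0 and 60 min groups or of the 60 min groups of the edited lines (adjusted p up to 0.25), and without a trend (0.089). At 120 min Bag3 had 1687 and 2076 normalized reads in line 264, 1723 and 2126 in line 3205, and 1345 and 1679 in RAW264.7, whose libraries straddled the unstimulated ones. Those log2 changes were 0.29 ± 0.18, 0.54 ± 0.18 and 0.05 ± 0.18 and did not pass, apart from line 3205 with the block (limma adjusted p = 0.0037). With the block Bag3 was also higher than RAW264.7 at 120 min, by 0.32 in line 264 (limma adjusted p = 0.030) and 0.35 in line 3205 (adjusted p = 0.018), where the fit without it gave adjusted p = 0.34 and 0.27.

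Hspa8 encodes the constitutive HSP70 of the cytosol, HSC70. In line 264 it had 7114 and 10526 normalized reads at 0 min, 15643 and 15292 at 60 min and 17003 and 15364 at 120 min. Line 3205 had 5529 and 9749 at 0 min, 14427 and 13365 at 60 min and 14480 and 14974 at 120 min. RAW264.7 had 7854 and 5963 at 0 min, 14306 and 11448 at 60 min and 17342 and 14367 at 120 min. No stimulated library of a line overlapped its unstimulated ones, but the unstimulated replicates of the edited lines lay far apart. The log2 change at 60 min was 0.84 ± 0.27 in line 264, 0.92 ± 0.27 in line 3205 and 0.90 ± 0.27 in RAW264.7, and none passed (limma, Benjamini-Hochberg adjusted p = 0.32, 0.25 and 0.14). At 120 min Hspa8 rose in RAW264.7 by 1.21 ± 0.27 (limma adjusted p = 0.020). That call was lost without any single library of the RAW264.7 0 and 120 min groups (adjusted p up to 0.16), and without a trend (0.056). The 120 min changes were 0.90 ± 0.27 in line 264 (limma adjusted p = 0.099; 0.038 with the block, and down to 0.040 without either line 3205 library at 0 min) and 1.0 ± 0.27 in line 3205 (adjusted p = 0.072; 0.026 with the block, and 0.020 without its own replicate 2 at 0 min). No Hspa8 level differed between an edited line and RAW264.7 beyond the spread at any time (limma adjusted p = 0.54 to 0.97).

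Hspa1b, a stress-inducible HSP70, had lower levels at 120 min of LPS than without it in the edited lines and higher levels in RAW264.7, with replicates far apart. In line 264 it had 277 and 127 normalized reads without LPS, 284 and 105 at 60 min and 145 and 86.8 at 120 min. In line 3205 it had 590 and 127, then 456 and 81.7, then 340 and 63.9. In RAW264.7 it had 137 and 55.6, then 292 and 119, then 501 and 239. Replicate 1 was above replicate 2 in all 9 groups, by 1.67-fold to 5.58-fold. Within same-numbered libraries, the 120 min level was 0.525 and 0.681 times the unstimulated one in line 264, 0.576 and 0.504 times in line 3205, and 3.65 and 4.29 times in RAW264.7. Without the block none of the comparisons passed. The log2 change at 120 min was -0.74 ± 0.90 in line 264, -0.88 ± 0.90 in line 3205 and 1.97 ± 0.90 in RAW264.7 (limma, Benjamini-Hochberg adjusted p = 0.76, 0.74 and 0.22). With the block the RAW264.7 change passed (limma adjusted p = 0.0037), and those of the edited lines did not (0.22 and 0.15).

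Between lines, the block gave 4 further Hspa1b calls. Without LPS the log2 difference from RAW264.7 was 1.09 in line 264 (limma adjusted p = 0.029 with the block, 0.59 without) and 1.64 in line 3205 (0.0035 with the block, 0.34 without). At 120 min it was -1.61 in line 264 (limma adjusted p = 0.0094 with the block, 0.32 without) and -1.22 in line 3205 (0.033 with the block, 0.46 without). The 120 min response differed from that of RAW264.7 by -2.71 ± 1.28 in line 264 (limma adjusted p = 0.088 with the block) and by -2.86 ± 1.28 in line 3205 (0.047 with the block), against adjusted p = 1 for both without it.

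Hspa1a, the neighbouring copy, held at most 5.33 normalized reads in any library. Line 264 held 2, 7 and 0 reads in its libraries at 0, 60 and 120 min, line 3205 4, 2 and 2, and RAW264.7 0, 3 and 4. These counts allow no statement on direction, and its calls turned on the settings. The 60 min change in RAW264.7, 3 reads against 0, gave a limma adjusted p of 0.068, and passed in the blocked fit (0.049), with a pseudocount of 0.5 (0.047), with no filter (0.030) and without a trend (0.0046). Line 3205 over RAW264.7 without LPS, 4 reads against 0, gave 0.068 and passed with a pseudocount of 0.5 (limma adjusted p = 0.041), with no filter (0.032) and without a trend (0.0040). Without a trend line 264 was also called higher than RAW264.7 without LPS, on 2 reads against 0 (limma adjusted p = 0.032), and line 3205 lower at 60 min, on 2 reads against 3 (0.0096).

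**Figure D3:**
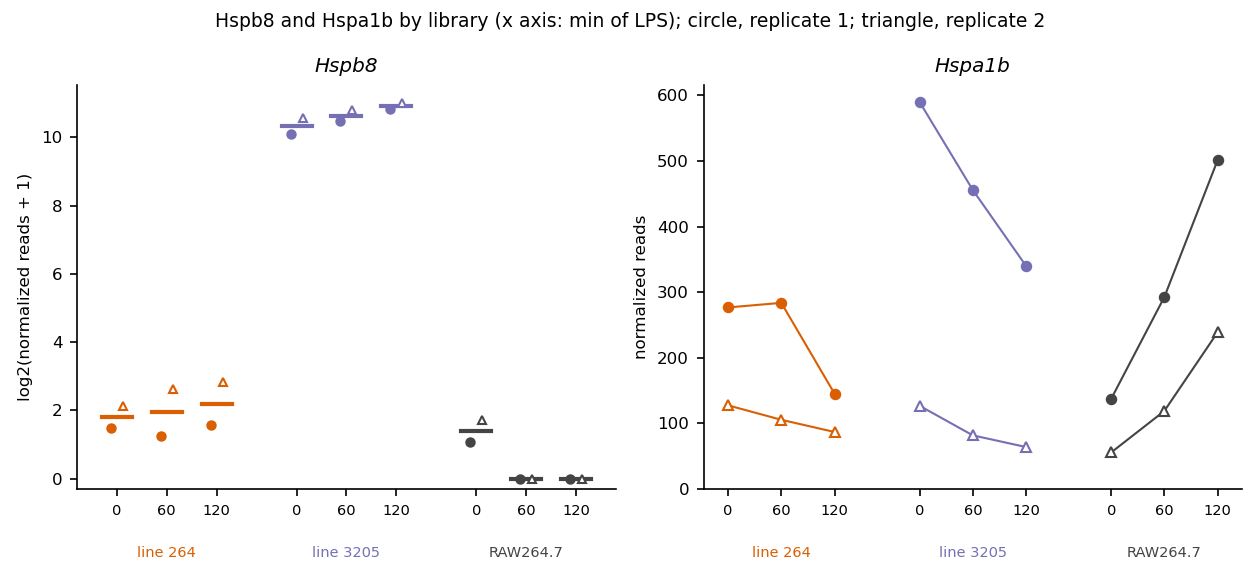
Left, Hspb8 as log2(normalized reads + 1) by min of LPS, with group means as lines; right, the HSP70 gene Hspa1b in normalized reads, with lines joining libraries of the same replicate number. Hspb8 lies above 10 on the log2 scale in line 3205 and below 3 elsewhere; the Hspa1b lines end higher than they start in RAW264.7 and lower in both edited lines.

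Hsp90aa1, the inducible cytosolic HSP90, was called in no comparison with all libraries in the fit. It had 9496 and 11150 normalized reads without LPS, 11702 and 13375 at 60 min and 13292 and 14192 at 120 min in line 264. Line 3205 had 8709 and 14355, then 12600 and 14929, then 12445 and 16388, and RAW264.7 had 9379 and 9361, then 11689 and 11696, then 12595 and 12749. The RAW264.7 replicates lay close together, and the unstimulated libraries of line 3205 spanned those of both other lines. Its log2 changes after LPS were between 0.28 and 0.44 in the 3 lines at both times (limma, Benjamini-Hochberg adjusted p = 0.28 to 1). The log2 difference of line 3205 from RAW264.7 without LPS was 0.25 (limma adjusted p = 0.52). Without replicate 1 of line 3205 it was 0.62 and was called (limma adjusted p = 0.037), and without replicate 2 it was -0.11.

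Hsph1, an HSP110 protein that acts as a nucleotide exchange factor for HSP70, was higher in the edited lines than in RAW264.7 and was not called for any LPS response. Without LPS it had 9303 and 11834 normalized reads in line 264 and 8741 and 11025 in line 3205, against 6883 and 6761 in RAW264.7. At 60 min it had 11662 and 12211 in line 264 and 10832 and 10932 in line 3205, against 8420 and 7108 in RAW264.7. No library of an edited line overlapped RAW264.7 at these times. The log2 difference from RAW264.7 without LPS was 0.62 ± 0.15 in line 264 (limma, Benjamini-Hochberg adjusted p = 0.024) and 0.53 ± 0.15 in line 3205 (adjusted p = 0.048). At 60 min it was 0.63 ± 0.15 in line 264 (limma adjusted p = 0.022) and 0.49 ± 0.15 in line 3205 (adjusted p = 0.058; 0.021 with the block, and down to 0.0345 without either 0 min library of line 264 or of line 3205). At 120 min, 10065 and 11369 in line 264 and 10548 and 11150 in line 3205, against 8911 and 8527 in RAW264.7, gave log2 differences of 0.30 and 0.32 that did not pass (limma adjusted p = 0.28 and 0.24). The unstimulated call was lost in line 264 without either RAW264.7 library or without its own replicate 2 at 0 min (adjusted p up to 0.15), and without a trend (0.064). In line 3205 it was lost without any of 9 libraries, namely either library of RAW264.7 at 0 or 60 min, of line 264 at 60 min or of line 3205 at 60 min, or replicate 2 of line 3205 at 0 min (up to 0.19), and with no filter (0.066), no trend (0.10) or TMM scaling (0.053). The 60 min call of line 264 was lost without replicate 2 of RAW264.7 or either line 264 library at 60 min (up to 0.16), and without a trend (0.056).

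Hspb8, a small heat shock protein that acts with BAG3, was present in quantity in line 3205 and near the detection limit in the others, and its values are given as a description. Line 3205 had 1106 and 1521 normalized reads without LPS, 1442 and 1768 at 60 min and 1827 and 2047 at 120 min. Line 264 had 1.82 and 3.42, then 1.39 and 5.18, then 1.96 and 6.11, and RAW264.7 had 1.09 and 2.32 without LPS and 0 in all 4 stimulated libraries. The difference was present without LPS. Line 3205 was 760-fold above RAW264.7 at 0 min (95% counting interval 260 to 3687, from 3 RAW264.7 reads), at least 565-fold at 60 min and at least 994-fold at 120 min, against the limit that 3 reads over the group set. Against line 264 it was 484-fold higher at 0 min (interval 222 to 1319, from 6 line 264 reads), 522-fold at 60 min (264.9 to 1210, from 8 reads) and 507-fold at 120 min (246 to 1262, from 7 reads). The 2 libraries of line 264 lay far apart, and against either alone the fold was 384 and 722 at 0 min, 310 and 1154 at 60 min, and 317 and 986 at 120 min. PCR reads are not independent molecules, so these intervals and limits cover counting error only. In line 3205 the LPS changes were 0.30 ± 0.52 at 60 min and 0.58 ± 0.51 at 120 min on the log2 scale and did not pass (limma, Benjamini-Hochberg adjusted p = 1 and 0.69). Those standard errors come from a spread shared by all groups of the fit, including the line 264 and RAW264.7 groups with few reads. Both 120 min libraries of line 3205 lay above both unstimulated ones, with same-numbered ratios of 1.65 and 1.35. Its 60 min libraries overlapped the unstimulated ones. The levels of line 264 and RAW264.7 rest on at most 8 reads per group, and no test between them is given. The summed B cell marker list was also higher in line 3205 than in the other lines. It was 22.2 to 152 normalized reads in line 3205, 1.82 to 6.11 in line 264 and 1.48 to 5.44 in RAW264.7. Of its 5 genes 4 were in the tables, 3 of which stayed under 10 normalized reads in every library, and Cd79b carried the sum with 20.1 to 148 in line 3205. Within line 3205 Cd79b had 148 and 35.9 normalized reads at 0 min, 56.2 and 27.4 at 60 min and 43.9 and 20.1 at 120 min. The part of this in the Hspb8 difference was not tested.

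Hspb1, the gene of HSP27, was practically undetected, with 0 to 0.910 normalized reads. Its reads numbered 1 in the unstimulated and 2 in the 60 min libraries of line 264, and 0 in the other 7 groups. In line 3205 a count of 0 over the group allows a level of up to 1.5 normalized reads at 0 min, 0.963 at 60 min and 1.0 at 120 min, and in RAW264.7 up to 1.68, 2.85 and 1.94.

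Hsf1, the regulator itself, was higher in line 3205. It had 2215 and 2286 normalized reads without LPS, 2352 and 2691 at 60 min and 2501 and 2808 at 120 min in line 3205, against 1524 and 1694, then 1666 and 1566, then 2016 and 1980 in RAW264.7. Line 264 had 1586 and 1994, then 1733 and 1832, then 1818 and 2145. Line 3205 did not overlap RAW264.7 at any time, whereas line 264 overlapped it at 0 and 120 min. The log2 difference of line 3205 from RAW264.7 was 0.49 ± 0.13 without LPS (limma, Benjamini-Hochberg adjusted p = 0.038), 0.64 ± 0.13 at 60 min (adjusted p = 0.010) and 0.41 ± 0.15 at 120 min (adjusted p = 0.10; 0.016 with the block). The unstimulated call was lost without any of 10 of the 12 libraries, the 2 of line 264 at 0 min being the exceptions (adjusted p up to 0.22), and without a trend (0.084), and the 60 min call without replicate 2 of RAW264.7 or of line 3205 at 60 min (up to 0.092). No LPS response of Hsf1 passed, with log2 changes between 0.00 and 0.31 over lines and times.

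Counted over the 8 genes, line 264 was higher than RAW264.7 in 1 gene without LPS, against 13.2% of all genes that differed, in 2 at 60 min, against 15.3%, and in 1 at 120 min, against 13.5%. Line 3205 was higher in 2 genes without LPS, against 14.3%, in 2 at 60 min, against 15.4%, and in 1 at 120 min, against 13.9%. None was lower in this fit. As given above, Hspa1b was called lower in both edited lines at 120 min with the replicate block. Hspa1a was called lower in line 3205 at 60 min without a trend. None of the 8 was called for a response different from that of RAW264.7. Of all genes, 0.0173% (line 264) and 0.00578% (line 3205) were called at 60 min, and 0.0229% and 0.00573% at 120 min. With so few calls among all genes, this does not show that the responses were equal. At an unadjusted p under 0.05 limma gave 0 of the 8 for line 264, against 2.16% of all genes, and 2 for line 3205, against 2.47%, at 60 min. At 120 min it gave 1 for line 264, against 3.75%, and 2 for line 3205, against 4.72%. edgeR on the recovered reads, whose filter left out Hspa1a, called 0 of the others in each comparison. Of all genes it called 0.0279% (line 264) and 0.00696% (line 3205) at 60 min, and 0.014% and 0.021% at 120 min.

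The replicate block raised the share of all genes called in every comparison, so the calls it adds stand beside a higher background. With it, LPS at 60 min gave 2 of the 8 genes in line 264 and 2 in line 3205, against 3.99% of all genes in each, and 3 in RAW264.7, against 8.08%. At 120 min it gave 2 in line 264, against 16.4%, 3 in line 3205, against 14.3%, and 3 in RAW264.7, against 23.7%. For line 264 over RAW264.7 the blocked counts were 2 without LPS, against 23.3%, 2 at 60 min, against 26.9%, and 3 at 120 min, against 25.3%. For line 3205 they were 3, against 26.5%, 3, against 27.9%, and 4, against 27.2%. The differences in response gave 1 gene, Hspa1b, for line 3205 at 120 min, against 0.682%, and 0 for line 3205 at 60 min, against 0.0809%, and for line 264 at 60 and 120 min, against 0.127% and 0.258%.

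**Figure D4:**
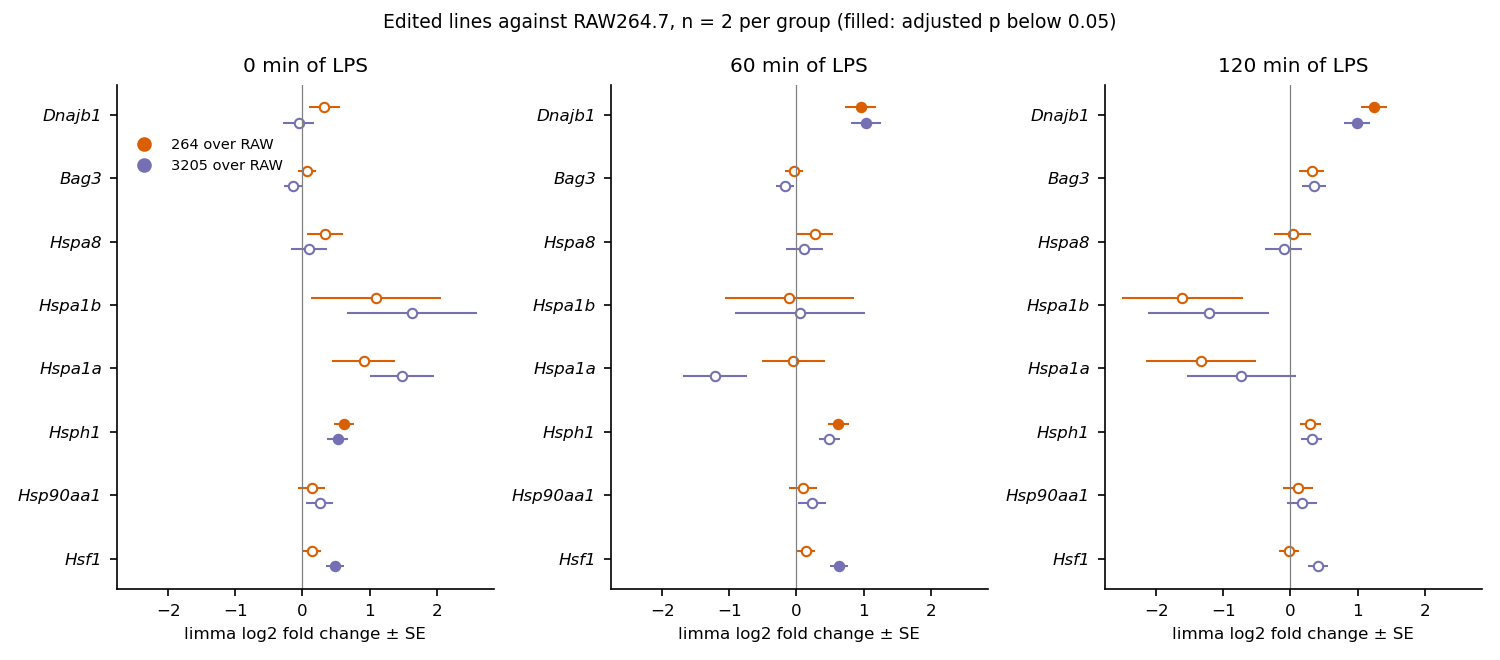
limma log2 fold change with its standard error (x axis) of line 264 and line 3205 over RAW264.7 for 8 chaperone genes (rows) at 0, 60 and 120 min of LPS (2 libraries per group). The fit is the one without replicate pairing, and filled points have an adjusted p below 0.05. Dnajb1 is filled for both lines at 60 and 120 min, Hsph1 for both lines at 0 min and line 264 at 60 min, and Hsf1 for line 3205 at 0 and 60 min. Hspb8, at log2 differences of 8.95 to 10.92 in line 3205, is left off for scale. With 3 RAW264.7 reads of Hspb8 at 0 min and 0 at 60 and 120 min, the size of those differences depends on the pseudocount of 1.

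Beyond these 10, 87 related genes in 8 lists were examined, of which 82 were tested. At 60 min LPS raised 1 of the 82 in line 264, 1 in line 3205 and 2 in RAW264.7, and lowered none. These are 1.22%, 1.22% and 2.44% of the 82, near the 1.19%, 1.23% and 2.98% of all genes. Dnajb9, an endoplasmic reticulum J-domain protein that is induced with the unfolded protein response, was the call shared by all 3 lines. Its log2 change was 1.94 in line 264, 1.63 in line 3205 and 1.37 in RAW264.7 (limma, Benjamini-Hochberg adjusted p = 0.0012, 0.0035 and 0.0063). The 13 J-domain genes tested held 1 more call in RAW264.7, Dnaja2, a cytosolic HSP70 partner, at 0.54 (limma adjusted p = 0.043). At 120 min LPS raised none and lowered 1 of the 82 in line 264 and in line 3205, and raised 4 and lowered 3 in RAW264.7. These are 1.22%, 1.22% and 8.54%, below the 5.43%, 5.03% and 10.6% of all genes. The gene lowered in each line was Dnajb14, a membrane-bound J-domain protein, with log2 changes of -0.74, -0.75 and -1.35 (limma adjusted p = 0.016, 0.015 and 0.00036). In RAW264.7 Dnajb4, another cytosolic J-domain protein, rose by 2.21 (limma adjusted p = 0.0026), Cdc37, the kinase-specific HSP90 co-chaperone, rose by 0.48 (0.040), and the BAG genes Bag2 and Bag4 fell by 0.79 and 0.62 (0.0081 and 0.024).

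Between lines, 7 of the 82 related genes were higher and 2 lower in unstimulated line 264 than in RAW264.7, and 8 were higher and 1 lower in line 3205. This is 10.98% of the 82 in each line, below the 13.2% and 14.3% of all genes. In line 264 Hspa12a, a distant HSP70 relative, was higher by 3.82 on the log2 scale, the small heat shock protein gene Cryab by 2.26 and the HSP90 co-chaperone genes Fkbp5 and Stip1 by 0.79 and 0.77 (limma, Benjamini-Hochberg adjusted p = 0.0061, 0.042, 0.0032 and 0.049). Dnajb14 was lower there by 1.52 (log2 fold change -1.52, limma adjusted p = 3.6e-05). In line 3205 4 of 15 chaperonin and prefoldin genes were higher and none lower, against 14.3% of all genes, among them Pfdn5 by 0.83 and Cct5 by 0.68 (limma adjusted p = 0.0026 and 0.0045). The HSP70-binding protein gene St13 was higher there by 0.74 and Bag2 by 0.76, while Fkbp4, an HSP90 co-chaperone, had a log2 difference of -0.92 (limma adjusted p = 0.0023, 0.0034 and 0.0046). The median of the chaperonin and prefoldin list was 0.10, beside -0.0026 for all genes tested. At 60 min 5 of the 15 were higher in line 3205, against 15.4%, with a median of 0.06, and at 120 min 1 was, against 13.9%, with a median of -0.012. None of the 5 small heat shock protein genes tested was called in line 3205. Of the 82, 7 were higher and 3 lower in line 264 at 60 min and 7 higher and 1 lower in line 3205, or 12.2% and 9.76%, against 15.3% and 15.4%. At 120 min 6 were higher and 3 lower in line 264 and 5 and 2 in line 3205, or 10.98% and 8.54%, against 13.5% and 13.9%. None of the 82 was called for a difference in response, which does not show that their responses were equal, since at most 0.0229% of all genes were called.

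Across the 12 libraries of the 60 min table, the 5 genes whose log2 levels ran most like Hspb8 were Mcrs1 (Pearson r = 0.987), Kif7 (0.986), Xrcc6 (0.982), Itgb4 (0.982) and Rbm44 (0.982), among 10179 genes with a mean of at least 50. The 4 libraries of line 3205 stand apart from the other 8 in Hspb8, so these r values restate that division. The 5 most like Hspa8 were the actin-linked genes Actr3 (0.954) and Actb (0.948), with Rnd1 (0.95), Slc20a1 (0.918) and Dnaja2 (0.915). Among the members, Hspa8 ran with Bag3 (0.885) and Dnajb1 (0.852), and Hspb8 with Hsf1 (0.928), while Hspa1b and Hspa8 gave 0.010. All of these are descriptions over libraries that share lines and LPS times.

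In primary macrophages, the authors' deposited table of LPS-responsive genes listed 2 of the 10, Hspa1a and Hspa1b. The authors' log2 fold change was 2.13 for Hspa1a and 2.37 for Hspa1b, at ranks 123 and 108 of 193 listed genes, where the median of the 187 induced genes was 2.71. The time of LPS behind these RNA values is not clear from the tables. In the matching ChIP tables, each with 1 library per time and so no test, the phosphorylated histone mark H3S28ph had signals of 3.44 at 60 min and 0.803 at 0 min at Hspa1a, and of 3.15 and 0.692 at Hspa1b. These ratios of 4.28 and 4.55 ranked 17 and 14 among the 187 genes, whose median ratio was 2.59. H3S31ph, a phosphorylation found on the H3.3 variant, had 3.44 at 60 min and 1.28 at 0 min at Hspa1a, and 5.17 and 1.67 at Hspa1b. Its ratios of 2.68 and 3.10 lay below the median of 3.89.

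The ratios of the other targets were smaller at both genes. H3.3 itself had ratios of 1.79 at Hspa1a and 2.03 at Hspa1b (median 1.95), and H3K36me3, a mark of transcribed gene bodies, 1.81 and 1.97 (median 1.61). H3K27ac, a mark of active promoters and enhancers, had 1.13 and 0.994 (median 1.18). H3K36me2 had 1.04 and 1.38 (median 1.0), which put Hspa1b at rank 4 of 187. Since Hspa1a and Hspa1b share most of their sequence, their ChIP signals are not independent of each other.

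**Figure D5:**
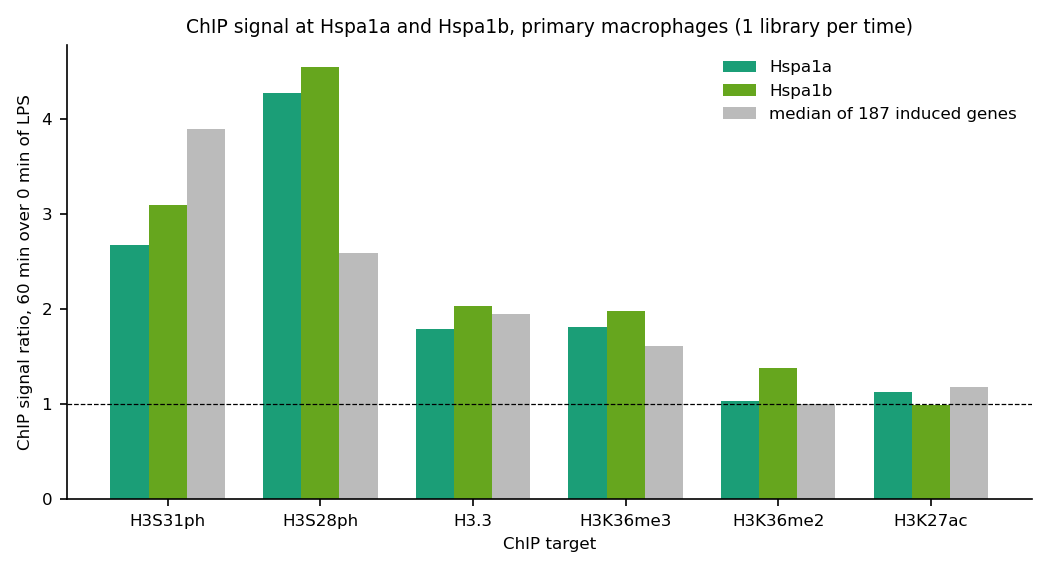
Ratio of ChIP signal at 60 min over 0 min of LPS (y axis, from 0) for 6 targets (x axis) at Hspa1a and Hspa1b in primary macrophages, beside the median of 187 LPS-induced genes; 1 library per time, the dashed line marks a ratio of 1. Both genes exceed the median for H3S28ph (4.28 and 4.55, against 2.59) and fall short of it for H3S31ph (2.68 and 3.10, against 3.89).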

How the data were processed

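The RNA values were deposited as signal, namely read counts divided by a size factor per library. Per the submitters' processing notes the tools included Trim Galore 0.5.0, STAR 2.4.2, featureCounts (Subread 1.4.6) and DESeq2 in R 3.4.0 for processing, and Bowtie2 2.3.4.1, Picard 2.14.0 and deepTools 2.5.4. Dividing each value by the smallest step of its library gave whole reads for 100% of values within 0.1 read, and all 18 libraries shared 1 normalization, so the 0 min values of both tables are the same. From the authors' deposited tables came log2 fold changes with p-values of their own comparisons and the ChIP signal of primary macrophages, each printed as theirs.

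Each table of 12 libraries was fitted with limma 3.58.1 (R 4.3.3) with a trend on log2(value + 1), 1 mean per group, over genes with a mean of at least 1 (17301 and 17450 genes), without the replicate number. Alternatives were a pseudocount of 0.5 or 5, no filter, no trend, the replicate number as a block, TMM scaling, edgeR 4.0.16 on the recovered reads, and leaving out each library. Deviations of same-numbered libraries correlated at 0.339 to 0.831 (60 min table) and 0.385 to 0.761 (120 min table) over 15 pairs of groups. By the rule that every pair exceed 0.1 the numbers were taken to pair libraries, although the labels do not say what a number marks. The main fit left this pairing out, so its spread includes the shared difference between replicates. Results with the block are given beside it. Nothing says that replicates came from separate cultures, so p-values measure the spread between these libraries, which may be technical.

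Tested on simulated data with the 60 min design in RAW264.7, limma recovered 83% of 2-fold and 100% of 4-fold differences, and 16.4% of its calls were false, against 2.63% for edgeR. At 120 min these were 81%, 99%, 6.25% and 1.10%. The spread set in the simulation is not stated here, so these shares describe simulated libraries and not the measured genes. At 120 min in RAW264.7, Hspa8 rose 2.31-fold and was called, while Hspa1b rose 3.92-fold and was not (limma adjusted p = 0.020 and 0.22). The simulated false share of 16.4% lies above the threshold on adjusted p, and the 60 min calls were not corrected for it. All 10 members are named, related genes by the smallest p per list and comparison, and correlates by the highest r. The members and lists were chosen with earlier results of these data known. Of the 74 samples, 44 were not analysed here, among them the primary macrophage RNA libraries, whose fold changes were taken as deposited. Figures were drawn with matplotlib 3.10.9.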

Additional observations from a re-analysis of the deposited data

Results flagged for a closer look

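The LPS response of Hspa1b differed in direction between the lines, since in 3 comparisons every same-numbered pair of libraries moved up in RAW264.7 and down in the edited line. These were line 3205 at 60 min and both edited lines at 120 min. In line 264 at 60 min replicate 1 was 1.03 times and replicate 2 0.827 times its unstimulated level. The log2 difference of the response from RAW264.7 was -1.58 in line 3205 at 60 min, -2.71 in line 264 at 120 min and -2.86 in line 3205 at 120 min. The test of the difference itself gave a limma adjusted p of 1 in each case, and 0.57, 0.088 and 0.047 with the replicate number as a block. Replicate 1 was above replicate 2 in all 9 groups, and the part of this in the result was not tested.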

How the results depend on the processing

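Counts are of the 8 members tested, Hspb8 aside. The fit with the replicate number as a block called 2 members, against 1, for LPS at 60 min in line 264 and again 2 in line 3205, 2 for line 264 over RAW264.7 without LPS, 2 for LPS at 120 min in line 264, 3 in line 3205 and 3 in RAW264.7, 3 for line 264 and 4 for line 3205 over RAW264.7 at 120 min, and 1 for the 120 min response of line 3205 minus RAW264.7. It changed no call of these 8 other than those given above with each gene. Without a trend 0 members were called for line 264 over RAW264.7 at 60 min, 1 for line 3205 over RAW264.7 without LPS and 0 for LPS at 120 min in RAW264.7. TMM scaling gave 1 for line 3205 over RAW264.7 without LPS. Both pseudocounts, no filter and edgeR kept every count within 1.5 times, with Hspa1a left out of the edgeR fit by its filter.

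Leaving out each library gave 1 to 2 calls for LPS at 60 min in RAW264.7 and 0 to 1 at 120 min. For line 264 and line 3205 the range at 120 min was 1 to 2. It gave 0 to 1 for line 264 and 0 to 2 for line 3205 over RAW264.7 without LPS, 0 to 2 and 0 to 3 at 60 min, and 0 to 1 for line 3205 at 120 min. A group left with 1 library was assumed to vary like the others. Hsp90aa1 in line 3205 over RAW264.7 without LPS, 0.25, turned to -0.11 without replicate 2 of line 3205 and reached 0.62, a call, without replicate 1. The cause of these shifts was not tested.

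Hspb1 and Hspa1a in every line, and Hspb8 outside line 3205, rest on at most 8 reads per group, and how reads that fit both Hspa1a and Hspa1b were counted is not given.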
